A study of Homo sapiens with 2 samples.

Results

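Spots rich in macrophage-marker transcripts were compared with marker-low spots of the same sections in 2 MDA-MB-231 tumors, Tumor-897 and Tumor-899. A marker sum M was formed for every spot with at least 5000 UMIs (unique molecular identifiers, each counting 1 captured transcript): the UMIs of C1QA, C1QB, C1QC, CSF1R, AIF1, TYROBP, FCER1G, CD68 and APOE per 10000 UMIs of the spot. The top 5% of spots by M in each tumor are called marker-rich here, and the lowest 25% marker-low. This gave 112 marker-rich spots in Tumor-897 and 98 in Tumor-899, 210 of 5382 spots over tissue in all. The marker-low spots numbered 558 and 490, and 2234 and 1962 spots had at least 5000 UMIs. The 9 genes chose the spots, so their values are given as a description and they were left out of the comparison.

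MDA-MB-231 is a human triple-negative breast cancer cell line, used here in a fate-mapping form whose cells carry a fluorescent reporter of past hypoxia. Both tumors were grown the same way, untreated, taken 18 days after implantation, frozen fresh and cut at 10 µm for Visium, which reads RNA from an array of spots that each cover several cells. Each tumor gave 1 section and both belong to 1 group, so the comparison is between spots within a section. The libraries share 1627 spot barcodes because every Visium array uses the same positions, not because they share cells.

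Macrophages take up dead cells, lipid and matrix debris. C1QA, C1QB and C1QC encode the chains of C1q, the recognition molecule of the classical complement pathway, CSF1R is the receptor for the growth factor that macrophages depend on, and TYROBP and FCER1G are signalling adaptors of myeloid receptors. AIF1 is a calcium-binding protein of macrophages, CD68 is a lysosomal membrane glycoprotein, and APOE carries lipid between cells. The counts are for human genes and the labels name no host; mouse reads may align to these 9 genes and to any other gene named here, and could not be told apart from human ones. In a spot, fewer cells of a type and less RNA per cell cannot be told apart.

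**Figure D1:**
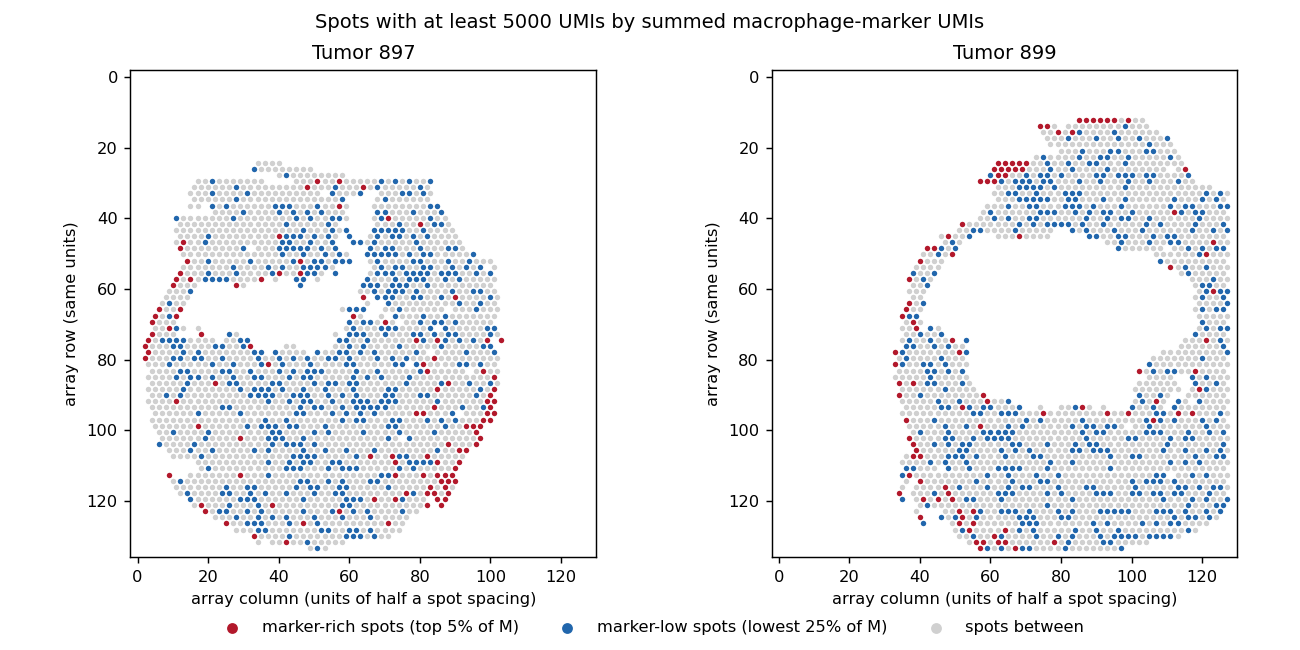
Array positions of spots with at least 5000 UMIs in Tumor-897 (left) and Tumor-899 (right), with the array column and row on the axes in array units. Red points are the 112 and 98 marker-rich spots, blue points the 558 and 490 marker-low spots and grey points those between. Marker-rich spots gather along parts of the rim in both sections.

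Marker-rich spots lay near the edge of the tissue and were smaller in UMIs. Their median distance to the nearest off-tissue area was 3 steps in Tumor-897 and 2 steps in Tumor-899, against 10 and 9 steps for marker-low spots, 1 step being the distance between adjacent spots. Of the marker-rich spots, 48.2% and 57.1% were within 2 steps of the border, against 10.2% in each tumor for marker-low spots. Their median depth was 13576 and 8735 UMIs, against 24101 and 20839.5 UMIs in marker-low spots. They also clustered: 20.7% and 22.3% of the neighbours of a marker-rich spot were themselves marker-rich, against 2.26% and 2.93% of the neighbours of marker-low spots.

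Collagen went with the markers. Of the marker-rich spots, 50.9% in Tumor-897 and 57.1% in Tumor-899 were among the 10% of spots with the most COL1A1, COL1A2 and COL3A1 UMIs per 10000, against 3.23% and 5.31% of marker-low spots. Skeletal muscle genes went with them in Tumor-899 alone: 20.4% of its marker-rich spots were among the 5% richest in muscle transcripts, against 3.06% of its marker-low spots. In Tumor-897 those shares were 5.36% and 5.20%.

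The marker-low spots were not free of the markers. M was 0 in 67 of the 558 in Tumor-897 and in 65 of the 490 in Tumor-899. The lowest M inside the marker-rich set was 5.417 in Tumor-897 and 5.1872 in Tumor-899, and the highest just outside it was 5.413 and 5.1867. The highest M inside the marker-low set was 1.7416 and 1.4403, and the lowest just outside it 1.7433 and 1.4422. Over all spots with at least 5000 UMIs the median M was 2.58 and 2.14, and the largest 20.3 and 25.8.

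CD68 supplied most of M. It gave 66.1% of the UMIs of the 9 genes over all spots of Tumor-897 and 73.1% in Tumor-899, and APOE gave 19.9% and 16.6%. Within the marker-rich spots CD68 gave 45.7% and 44.6%, and APOE 32.9% and 35.4%. CD68 was at 329 and 334 CPM (UMIs per 1000000 of the summed spots) in marker-rich spots, against 89.4 and 68.3 in marker-low spots. APOE was at 237 and 265, against 16.3 and 12.5. C1QB was at 57.0 and 34.8, against 5.68 and 1.73. These differences follow from the choice of spots.

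The other 7 genes were sparse. At least 1 UMI of them was found in 71.4% of marker-rich spots of Tumor-897 and 60.2% in Tumor-899, against 26.9% and 15.5% of marker-low spots. Thinned to 5000 UMIs a spot, the shares were 45.5% and 39.8%, against 6.63% and 4.08%. At least 3 of the 7 were found together in 27.7% and 16.3% of marker-rich spots, against 0.538% and 0.204% of marker-low spots. C1QC was nearly absent, with 5 and 1 UMIs over all marker-rich spots.

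Whether the 9 markers travel together was tested by leaving out each gene in turn and choosing spots by the other 8. UMIs were summed per tumor and spot group and fitted in edgeR over all genes with the tumor as a block, so each test rests on 4 sums from 2 tumors (n = 2 a group). Of the 8 markers with enough UMIs to test, 7 were higher in the chosen top 5% than in the lowest 25%, and CD68 was not. In these fits 3.37% (without APOE), 4.31% (FCER1G), 4.40% (C1QB), 4.53% (TYROBP), 4.68% (CSF1R), 4.87% (C1QC), 5.05% (AIF1), 5.14% (C1QA) and 6.23% (CD68) of all genes tested were called higher. C1QC was not tested.

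C1QA, held out, was at 10.7 and 11.3 CPM in spots chosen as top, against 2.87 and 0.811 in spots chosen as low (log2 fold 2.53 ± 0.43 SE, edgeR adjusted p = 2.44e-07). C1QB was at 37.8 and 27.9, against 10.6 and 4.66 (log2 fold 2.14 ± 0.24, edgeR adjusted p = 1.12e-15). APOE was at 132 and 112, against 42.9 and 33.7 (log2 fold 1.76 ± 0.11, edgeR adjusted p = 3.93e-50). For each of these 3 genes both top sums were above both low sums. The share of all genes so separated was not counted, so this adds no support to the tests. FCER1G (2.37), TYROBP (2.22), AIF1 (1.66) and CSF1R (1.62) had log2 folds in the same range, with CSF1R the nearest to the threshold (edgeR adjusted p = 0.0284) on 7 and 7 UMIs in the top spots.

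CD68, held out, was at 195.6 and 145 CPM in spots chosen as top, against 188.3 and 181.8 in spots chosen as low. It was slightly higher in Tumor-897 and lower in Tumor-899 (log2 fold -0.12 ± 0.10 SE, edgeR adjusted p = 0.523). DESeq2 called 4 of the 8 tested markers higher.

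**Figure D2:**
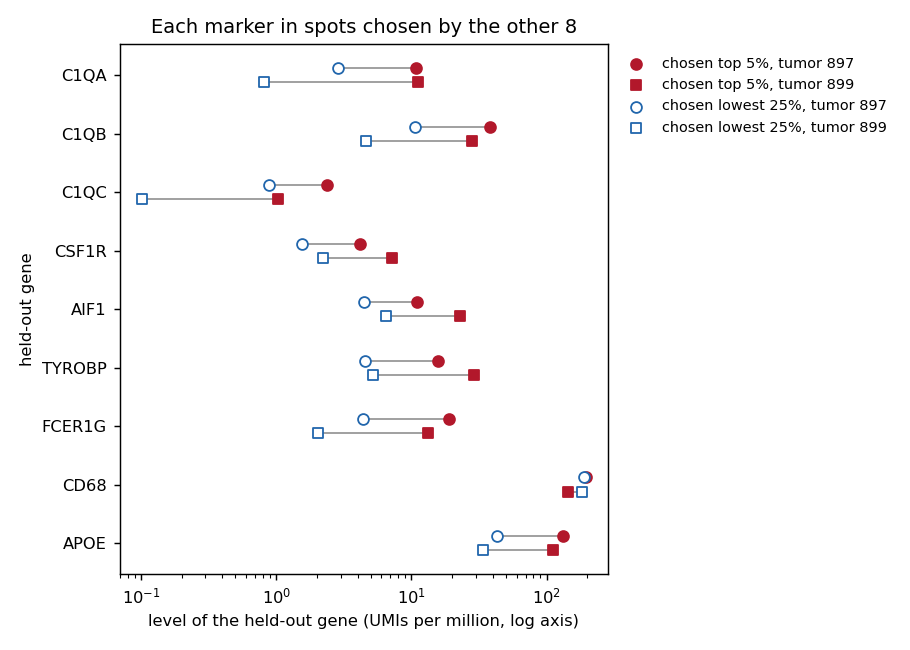
Level of each marker gene, in CPM on a log axis, in spots chosen by the other 8 genes, with filled red symbols for the chosen top 5% and open blue symbols for the lowest 25% (circles Tumor-897, squares Tumor-899; lines join the 2 values of a tumor). For 8 of the 9 genes both red symbols lie to the right of both blue ones, and for CD68 the 4 values lie together between 145 and 195.6. The share of all genes so separated was not counted.

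The marker-rich spots were then compared with the marker-low spots over all other genes. Most tested fibroblast markers, skeletal muscle genes and complement genes other than C1q were called higher, with part of the macrophage and lipid-export lists beside them. Of 12967 genes tested, edgeR called 621 (4.79%) higher and 196 (1.51%) lower in marker-rich spots at an adjusted p of 0.05, and the median log2 fold over all genes was 0.00. Of the 817 called genes (6.30%), 803 had the same sign in both tumors (98.3%, against 60.1% of all genes tested). Some genes entered the test only through their level in marker-rich spots: 207 of the 12967 reached the filter level of 1.73 CPM in those sums alone. DESeq2 called 158 genes higher and 1 lower. With 1 residual degree of freedom the edgeR variances were pulled fully to the common trend, so a gene on which the tumors disagree can still be called.

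Among called genes averaging at least 10 CPM over the 4 sums, with the same sign in both tumors, the 12 with the highest log2 folds included genes of connective tissue and of muscle. PRG4, which encodes the lubricating proteoglycan lubricin (GRCh38.p14, chromosome 1, 186296273 to 186314567), was at 40.4 and 100.3 CPM in marker-rich spots of Tumor-897 and Tumor-899, against 0.885 and 2.64 in marker-low spots. Both marker-rich sums were far above both marker-low sums (log2 fold 5.41 ± 0.27 SE, edgeR adjusted p = 2.72e-85). COL3A1, a chain of fibrillar collagen (chromosome 2, 188974373 to 189012746), was at 1763 and 3096, against 163 and 221 (log2 fold 3.70 ± 0.08). SFRP2, a secreted Wnt modulator made by fibroblasts (chromosome 4, 153780591 to 153789083), was at 42.2 and 84.9, against 3.24 and 5.28 (log2 fold 3.93 ± 0.23, edgeR adjusted p = 2.06e-61).

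SAA1, an acute-phase protein carried on lipoprotein (chromosome 11, 18266264 to 18269967), was at 79.6 and 304 CPM in marker-rich spots, against 8.70 and 19.5 in marker-low spots (log2 fold 3.74 ± 0.13, edgeR adjusted p = 4.66e-172). The other 8 of these 12 were CPXM1, TNXB, MT1M, MTRNR2L6 and the muscle genes TNNT3, ACTA1, TTN and CKM, with log2 folds of 3.27 to 3.89. CPXM1 had 23 and 13 UMIs in marker-low spots and was tested only through its level in marker-rich spots. MT1M, MTRNR2L6, TNXB, SAA1 and HLA genes have near-identical copies, so their counts are uncertain. The fall was smaller at the other end. KLHL23 was at 7.72 and 4.09 in marker-rich spots, against 16.4 and 16.7 in marker-low spots, and its log2 fold of -1.30 was the lowest of the 12 lowest named genes, which ranged up to -0.995. Where spots were chosen on one random part of the UMIs and the rest summed, its log2 fold was 0.19.

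Among 46 other macrophage and monocyte genes, 17 had enough UMIs to test. Of these 10 were called higher by edgeR and 0 lower, with a median log2 fold of 1.60 (0.00 over all genes), although 4 of the 17 were tested only through their level in marker-rich spots, and 7 of the other 13 were called. CTSS, a cathepsin of antigen-presenting cells, was at 61.7 and 37.9 CPM in marker-rich spots, against 22.3 and 12.7 in marker-low spots (log2 fold 1.57 ± 0.18, edgeR adjusted p = 6.98e-16). C3AR1, the receptor for complement fragment C3a, had 7 and 13 UMIs in marker-rich spots, against 13 and 11 in the larger sums of marker-low spots, and was one of the 4 tested only through marker-rich spots.

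Some members of that list differed little. LCP1, an actin-bundling protein of leukocytes, had a log2 fold of -0.04 and was not called, and LAPTM5 was at 79.6 and 66.5 CPM in marker-rich spots, against 54.0 and 68.6 in marker-low spots, so that its call (log2 fold 0.39) had no rise in Tumor-899. Defining leukocyte genes were nearly absent: PTPRC, the pan-leukocyte CD45 gene, had 0 UMIs in the marker-rich spots of both tumors, and MS4A6A, FCGR2B, FCGR3A, VSIG4, SIGLEC1, CLEC7A and CD48 had 0 UMIs in all 4 sums. The label macrophage-marker spots thus rests on part of the macrophage list. Without the collagen-rich spots, 0 of 10 tested macrophage genes were called by edgeR (4 with an unadjusted p under 0.05), where 1.50% of all genes were called higher, and the list's median log2 fold was 0.29. Without spots within 2 steps of the border, 0 of 11 were called by edgeR (5 with an unadjusted p under 0.05), where 1.43% of all genes were, with a median of 0.61. DESeq2 called 4 of the 17 in the full comparison.

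Part of the lists of lipid handling, uptake and the lysosome was higher in marker-rich spots, where edgeR called 4.79% of all genes higher. ABCA1, which exports cholesterol to lipoproteins, was at 32.7 and 38.9 CPM in marker-rich spots, against 10.0 and 9.14 in marker-low spots (log2 fold 1.94 ± 0.23, edgeR adjusted p = 5.50e-15). LRP1, an endocytic receptor that binds APOE-bearing lipoproteins, was at 77.8 and 145, against 27.9 and 42.1 (log2 fold 1.71 ± 0.13, edgeR adjusted p = 2.44e-38). They were 2 of 5 genes called higher among 14 tested of the lipoprotein and cholesterol export list, whose median log2 fold was 0.36. DESeq2 called 2 of the 14. Of 16 tested phagocytosis receptors and bridging molecules, 9 were called higher and 1 lower, led by the scavenger receptor STAB1 (log2 fold 2.43), with the matrix protein THBS1 lower (-0.32). Of 27 tested lysosome genes 8 were called higher, with a median of only 0.20 and the largest value in LAMP2 (0.64). DESeq2 called 2 of the 16 phagocytosis genes and 2 of the 27 lysosome genes. Adipocyte markers moved with these lists, 2 of 4 tested being called by edgeR and 1 by DESeq2. Their summed level was 46.9 CPM in marker-rich spots, against 26.8 in marker-low spots, in Tumor-897. In Tumor-899 it was 25.6, against 25.2. The part of these markers in the result was not tested. ADIPOQ, the adipocyte hormone adiponectin, had 16 and 3 UMIs in marker-rich spots, against 3 and 0 in marker-low spots, and was tested only through the marker-rich spots. FABP4, a fatty acid binding protein of adipocytes and macrophages, had 26 and 3 UMIs, against 32 and 13 (log2 fold 2.45, edgeR adjusted p = 1.01e-06, DESeq2 adjusted p = 0.307).

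Of 11 tested complement genes other than C1q, 7 were called higher by edgeR (3 by DESeq2) and 0 lower. Over all genes edgeR called 4.79% higher. The list's median log2 fold was 1.24, and 1 of the 11 was tested only through its level in marker-rich spots. CFB, the alternative-pathway factor B (chromosome 6, 31946095 to 31952084), was at 68.9 and 139 CPM in marker-rich spots, against 20.4 and 22.1 in marker-low spots (log2 fold 2.27 ± 0.14, edgeR adjusted p = 8.37e-55). CFP, or properdin, which stabilises the alternative-pathway convertase, was at 28.5 and 56.3, against 7.30 and 10.4 (log2 fold 2.28 ± 0.23). SERPING1, the C1 inhibitor, was at 138 and 73.7, against 36.6 and 17.1 (log2 fold 2.05 ± 0.13). Without collagen-rich spots 3 of 9 tested complement genes were called, where 1.50% of all genes were called higher. Without border spots 2 of 9 were, where 1.43% of all genes were called higher.

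Of 15 tested chemoattractants and growth factors of monocytes, 4 were called higher: CXCL12 (log2 fold 2.80), CCL5 (1.65), CXCL14 (1.45) and VEGFA (0.56). Over all genes edgeR called 4.79% higher in marker-rich spots. CXCL12, the ligand of CXCR4, was at 18.4 and 32.8 CPM in marker-rich spots, against 2.73 and 4.98 in marker-low spots. In the MHC class II list, whose products present antigen, HLA-DQA1 (2.78) and HLA-DRB1 (2.20) were called among 8 tested, with a median log2 fold of 0.80, HLA-DRB1 on 2 UMIs in the marker-rich spots of Tumor-899, while CD74 had a log2 fold of 0.07. Of 12 class I genes 3 were called higher, none above 0.44. Of 24 interferon-response genes 1 was called, IRF7 (1.15), which is near the share over all genes.

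Of 12 tested fibroblast markers 9 were called higher by edgeR, where 4.79% of all genes were, and 9 by DESeq2, with a median log2 fold of 2.16. DPT, which encodes dermatopontin, was tested only through its level in marker-rich spots, and 8 of the other 11 were called. EFEMP2, an elastic-fibre protein, was at 116 and 248 CPM in marker-rich spots, against 17.8 and 22.5 in marker-low spots (log2 fold 3.17 ± 0.12, edgeR adjusted p = 6.15e-144). Of 20 collagen-assembly genes 12 were called higher, with a median of 0.75, PCOLCE (2.11), the enhancer of procollagen C-proteinase, and the fibrillin FBN1 (1.89) leading. These are the markers of another cell type that moved with the macrophage list, and their part in its result was not tested. Without collagen-rich spots 2 of 11 tested fibroblast markers were called higher, where 1.50% of all genes were. Without border spots 6 of 11 were, where 1.43% of all genes were. The summed level of the fibroblast markers was 4104 and 6066 CPM in marker-rich spots, against 713 and 953 in marker-low spots.

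Of 3 tested mast cell genes 2 were tested only through their level in marker-rich spots, and the other was not called. CPA3, the mast cell carboxypeptidase (chromosome 3, 148865296 to 148897203), had 31 and 16 UMIs in marker-rich spots, against 3 and 5 in the far larger sums of marker-low spots, or 18.4 and 16.4 CPM against 0.221 and 0.508 (log2 fold 5.68 ± 0.48, edgeR adjusted p = 4.56e-30, DESeq2 adjusted p = 6.17e-11). CMA1, mast cell chymase, had 18 and 2 UMIs, against 0 and 2, and was called by edgeR (adjusted p = 9.18e-15) but not by DESeq2 (adjusted p = 0.541). GATA2, the gene that was not called, had a log2 fold of -0.57. Without collagen-rich or border spots neither CPA3 nor CMA1 had enough UMIs to be tested.

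Muscle and blood genes differed between the tumors in how they entered. All 11 tested skeletal muscle genes were called higher by edgeR, where 4.79% of all genes were, and 3 by DESeq2. However, the median log2 fold was 3.29 within Tumor-899 alone and 0.17 within Tumor-897. ACTA1, skeletal muscle actin (chromosome 1, 229431245 to 229434094), was at 3.56 and 425 CPM in marker-rich spots, against 1.18 and 36.0 in marker-low spots. Without muscle-rich spots its log2 fold was 0.46 (edgeR adjusted p = 0.697). HBB, beta-globin, was at 173 and 213, against 67.5 and 19.8 (log2 fold 2.22 ± 0.11). Its log2 fold was 1.42 within Tumor-897 and 3.50 within Tumor-899. DESeq2 called 0 of the 3 tested red blood cell genes. Of 7 endothelial genes VWF and AQP1 were called, VWF being one of 2 tested only through marker-rich spots and DESeq2 calling none of the 7, and neither the 1 tested granulocyte gene nor the 2 tested lymphocyte genes were.

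Part of the hypoxia list was higher in marker-rich spots, and most cell-cycle genes were not called. Of 32 tested hypoxia genes 11 were called higher by edgeR (4.79% of all genes) and none lower, with a median log2 fold of 0.31, and DESeq2 called 2 higher. Without collagen-rich spots 19 of 32 were called higher by edgeR, where 1.50% of all genes were. CA9, the hypoxia-induced carbonic anhydrase (chromosome 9, 35673928 to 35681159), was at 114 and 84.9 CPM in marker-rich spots, against 59.3 in each tumor's marker-low spots (log2 fold 0.85 ± 0.12, edgeR adjusted p = 1.76e-10). Of 24 S-phase genes 3 were called lower and of 26 G2 and M-phase genes 4, with medians of -0.19 and -0.15, where 1.51% of all genes were called lower. DESeq2 called 0 of either list. The mitochondrial genome's transcripts had 4 of 13 called lower (1 by DESeq2) and ribosomal proteins 9 of 30 called higher (3 by DESeq2). Across the range of M, from the lowest 25% of spots to the top 5%, the summed S-phase level ran 2054, 1979, 1899, 1819 and 1633 CPM in Tumor-897.

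**Figure D3:**
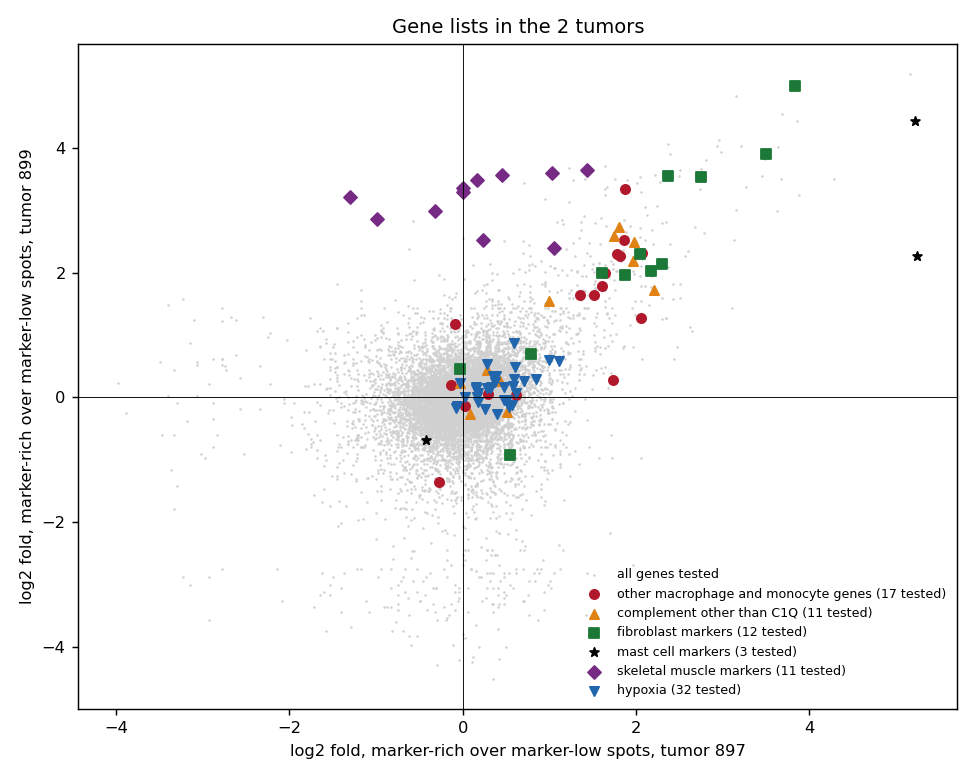
Log2 fold of marker-rich over marker-low spots in Tumor-897 (x axis) and in Tumor-899 (y axis), with small grey points for all 12967 genes tested and symbols for the tested members of 6 lists. Most fibroblast and complement genes lie high in both tumors, and most skeletal muscle genes lie far above 0 for Tumor-899 only (median 3.29, against 0.17 for Tumor-897). The mast cell genes CPA3 and CMA1, tested only through marker-rich spots, also lie high in both. CMA1 rests on 2 UMIs in each of the 2 sums of Tumor-899. The log2 fold of the other tested mast cell gene, GATA2, was below 0.

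Which of the 9 genes chose the spots changed these results. Spots chosen without CD68 shared 60.7% and 61.2% with the marker-rich spots, and spots chosen by CD68 alone 44.6% and 40.8%. The sets lay in different places. The top spots chosen without CD68 had a median of 2 and 1 steps from the border, against 11 and 11 for their low spots, and 64.3% and 77.6% of them were collagen-rich. The top spots by CD68 alone lay 7 and 12 steps from the border, against 8 and 7 for their low spots, and 14.3% and 6.12% of them were collagen-rich. Depth differed too. Without CD68 the top spots had medians of 15673.5 and 9183.5 UMIs and the low spots 16464.5 and 19840.5. With CD68 alone these were 14514 and 12065.5, and 25414 and 19979.5. The low spots without CD68 held 0 UMIs of APOE and of C1QB. What depth and position add to the differences below was not tested.

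Hypoxia genes turned round between these choices. With CD68 alone, 31 of 32 were called higher and the median log2 fold was 1.03, where 4.16% of all genes were called higher. Without CD68, 24 of 32 were called lower and none higher, with a median of -0.62, where 4.42% of all genes were called lower. CA9 was at 132 and 113 CPM in spots richest in CD68, against 50.6 and 50.3 in those poorest in it (log2 fold 1.41, edgeR adjusted p = 1.79e-35). Without CD68 it was at 83.1 and 65.0 in the top spots, against 89.0 and 82.3 in the low spots (log2 fold -0.21, edgeR adjusted p = 0.326).

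Heat shock genes turned round too. HSPA6, an inducible chaperone, was at 67.7 and 98.6 CPM in spots richest in CD68, against 23.8 and 33.8 in those poorest in it (log2 fold 1.64, edgeR adjusted p = 2.63e-32). Without CD68 it was at 18.6 and 9.29, against 55.2 and 67.3 (log2 fold -1.98, edgeR adjusted p = 1.84e-23). Over the list, 7 of 12 were called higher with CD68 alone and 9 of 12 lower without it.

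Macrophage and fibroblast genes followed the other 8 markers and not CD68. Without CD68, 9 of 16 tested macrophage genes were called higher (median log2 fold 1.66), 7 of 10 complement genes, and 10 of 13 fibroblast markers (2.61), where 6.23% of all genes were called higher. With CD68 alone, 0 of 13 tested macrophage genes were called by edgeR (2 with an unadjusted p under 0.05, median 0.11), 1 of 10 complement genes, and 1 of 11 fibroblast markers higher and 1 lower, where 1.65% of all genes were called lower. PRG4 turned to a log2 fold of -0.12. C1QB itself was at 12.9 and 1.48 CPM in the spots richest in CD68, against 14.9 and 6.12 in those poorest in it. These choices share spots, so their values stand side by side without a test between them.

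**Figure D4:**
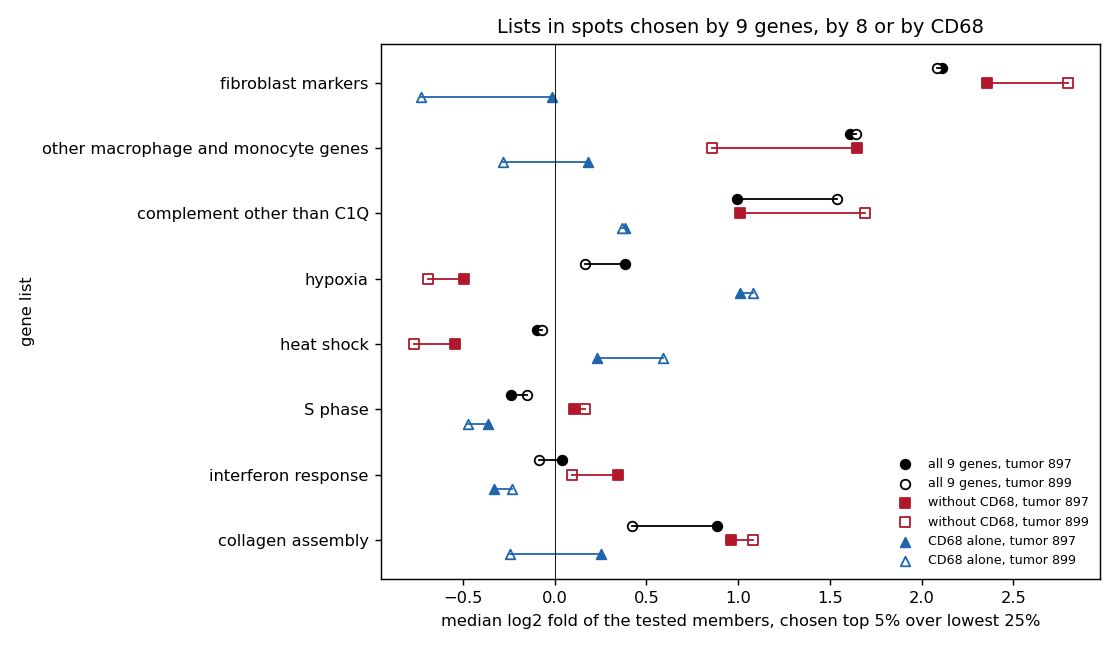
Median log2 fold of the tested members of 8 gene lists (rows) in the chosen top 5% over the lowest 25% of spots, for spots chosen by all 9 genes (black circles), without CD68 (red squares) and by CD68 alone (blue triangles), filled for Tumor-897 and open for Tumor-899. Fibroblast and macrophage lists are high without CD68 and near or below 0 with CD68 alone, and hypoxia is the reverse.

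Since marker-rich spots lay at the border and held fewer UMIs, they were paired with marker-low spots where a match was free. A match had the same number of border steps (8 or more counted as 1 class) and UMIs within 0.5 on the log2 scale. This gave 81 and 65 pairs, with median depths of 15062 and 10017 UMIs, against 17201 and 10438. The other marker-rich spots, of 112 and 98, found no match. Of the paired marker-rich spots 33.3% and 36.9% were within 2 steps of the border, against 48.2% and 57.1% of all marker-rich spots. Collagen-rich spots were also fewer among them than among all marker-rich spots (50.9% and 57.1%). Of 9308 genes tested, edgeR called 77 (0.827%) higher and 11 (0.118%) lower, and DESeq2 called 4 and 0. Collagen still differed: 35.8% and 38.5% of the paired marker-rich spots were collagen-rich, against 11.1% and 20% of the paired marker-low spots.

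Some matrix and complement genes were called in the pairs as well. COL3A1 was at 1156 and 1830 CPM in paired marker-rich spots, against 278 and 709 in paired marker-low spots (log2 fold 1.73 ± 0.06, edgeR adjusted p = 1.21e-153). PRG4 had a log2 fold of 2.71 and SAA1 of 1.93. The paired marker-rich spots are among those of the first comparison, so these values are not independent of it. Of 9 tested fibroblast markers 7 were called by edgeR (median log2 fold 1.21) and 3 by DESeq2. CFB was at 53.9 and 115, against 23.4 and 28.9 (log2 fold 1.59 ± 0.22, edgeR adjusted p = 1.34e-09), and CFP (1.69) and SERPING1 (1.16) were the other called genes of 7 complement genes tested, none of which DESeq2 called. Without border spots the paired log2 fold of CFP was -0.027.

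ABCA1 (1.31), LRP1 (0.997) and CXCL12 (2.43) were also called by edgeR. CXCL12 had 4 and 3 UMIs in paired marker-low spots and was tested only through its level in paired marker-rich spots. DESeq2 called 0 of the 12 tested lipoprotein and cholesterol export genes and 0 of the 9 tested chemoattractants and growth factors. Of 7 tested macrophage genes CTSS alone was called by edgeR, at 55.3 and 23.9 CPM, against 24.1 and 15.1 (log2 fold 1.10 ± 0.26, edgeR adjusted p = 0.00417), and the list's median was 0.21. DESeq2 called 0 of the 7. Of the 32 tested hypoxia genes, 0 were called by edgeR or by DESeq2, with 2 at an unadjusted p under 0.05 and a median of -0.03. Of 12 mitochondrial transcripts 6 were called lower by edgeR and 0 by DESeq2, MT-CO1 with the smallest p (log2 fold -0.26 ± 0.04, edgeR adjusted p = 1.23e-07). Of the 12 lowest named genes 11 were tested and 0 called, the smallest edgeR adjusted p being 0.0849.

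Last, spots touching a marker-rich spot were set against spots at least 4 steps from any, neither being marker-rich and both matched as above, in 313 and 207 pairs. Here both sides were set by their distance to spots that the 9 genes chose, with the top 5% left out of both. The 9 genes entered this fit, but their values are not independent of that choice and lend the markers no separate support. Of 12687 genes tested, edgeR called 68 (0.536%) higher and 7 (0.0552%) lower. DESeq2 called 2 higher and 0 lower, of which COL3A1 and SAA1 are described here.

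Of the 8 markers tested 1 was called higher in adjacent spots, FCER1G, at 7.21 and 2.39 CPM in adjacent spots, against 3.06 and 0 in distant spots (log2 fold 1.47 ± 0.38, edgeR adjusted p = 0.0213). C1QB was at 15.4 and 5.97, against 9.88 and 4.34 (log2 fold 0.62, edgeR adjusted p = 0.268). APOE was at 61.3 and 38.8, against 47.7 and 37.0 (log2 fold 0.29, edgeR adjusted p = 0.204). Over the 8 markers the median log2 fold was 0.55, and 6 had an unadjusted p under 0.05. Of 12 tested macrophage genes 0 were called by edgeR or by DESeq2, with 2 at an unadjusted p under 0.05 and a median of 0.20.

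COL3A1 was at 468 and 523 CPM in adjacent spots, against 181 and 223 in distant spots (log2 fold 1.32 ± 0.05, edgeR adjusted p = 4.24e-127). Of 11 tested fibroblast markers 7 were called higher by edgeR (median 0.69) and 1 by DESeq2. SAA1 (1.70), PRG4 (2.31) and SERPING1 (0.53) were called too. PRG4 had 8 and 5 UMIs in distant spots. It was one of 60 of the 12687 genes that were tested only through their level in adjacent spots. Of 32 hypoxia genes 6 were called higher (median 0.16), CA9 at 100.9 and 97.6, against 76.8 and 67.4 (log2 fold 0.46 ± 0.08, edgeR adjusted p = 2.31e-06), and DESeq2 called 0 of the 32. Collagen-rich spots made up 19.2% and 20.3% of adjacent spots, against 5.75% and 4.83% of distant ones. Of 10 tested muscle genes 9 were called by edgeR (median log2 fold 2.74) and 0 by DESeq2. Their median was 0.24 within Tumor-897 and 2.81 within Tumor-899. Muscle-rich spots made up 10.1% of adjacent spots of Tumor-899, against 0 of 207 distant spots.

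By distance, C1QB in Tumor-897 was at 57.0 CPM in marker-rich spots, then 15.2, 12.2 and 11.3 at 1, 2 and 3 steps, 9.64 at 4 or 5 and 10.7 beyond. The drop after the first step follows from the choice of spots. In Tumor-899 the levels were 34.8, then 6.06, 4.18, 4.37, 4.17 and 4.19. The fibroblast sum was 4104, 1503, 923 and 863 CPM at 0 to 3 steps in Tumor-897 and 6066, 2101, 1164 and 842 CPM in Tumor-899.

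**Figure D5:**
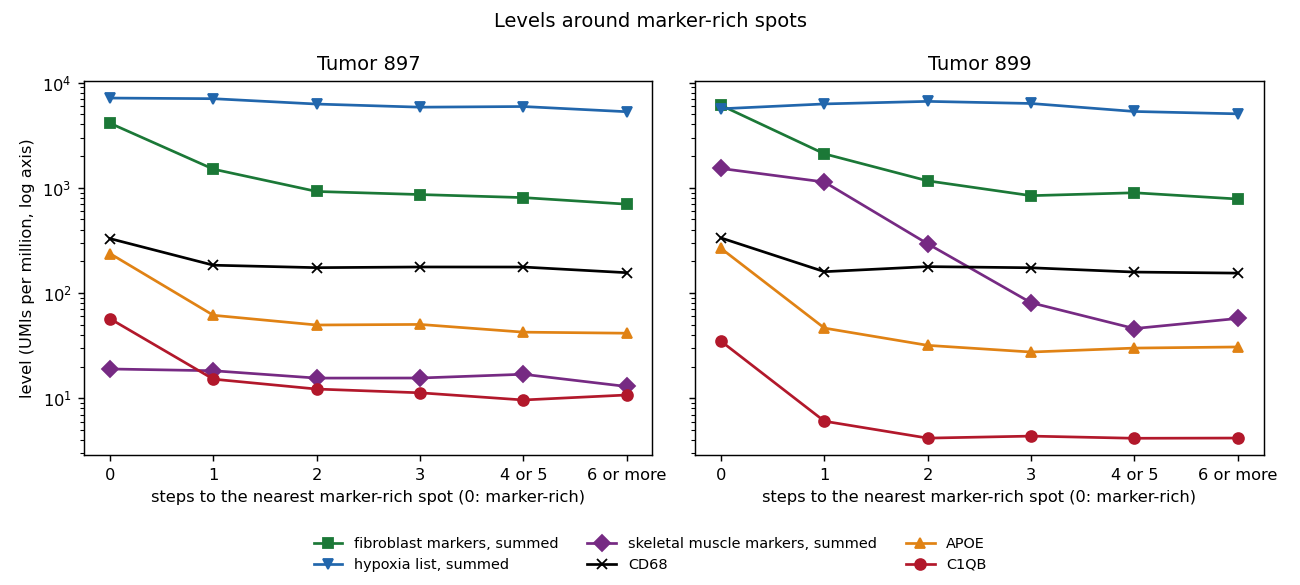
Level in CPM (log axis) by steps to the nearest marker-rich spot (x axis, 0 being the marker-rich spots) in Tumor-897 (left) and Tumor-899 (right). C1QB and APOE drop within 1 step, the summed fibroblast markers run down over 2 to 3 steps, and summed skeletal muscle markers are high near marker-rich spots in Tumor-899.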

How the data were processed

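The authors deposited a matrix of UMI counts for each tumor, with 36601 human features. Per the file headers Space Ranger 1.3.0 produced them. The genome build was hg38, per the submitters' processing notes. Positions of named genes are from RefSeq (GRCh38.p14; 509 of 528 symbols matched). Images were not used here. UMIs were summed per tumor and spot group (4 sums) and fitted in edgeR 4.0.16 (R 4.3.3, limma 3.58.1) by its quasi-likelihood test (TMM scaling; genes kept by filterByExpr), blocked on tumor (1 residual degree of freedom), with Benjamini-Hochberg adjustment over all genes tested. DESeq2 1.42.0 was an alternative. No test under p = 0.5 is possible from an exact permutation of 2 tumors, and the labels do not say whether the tumors came from separate animals. In the main comparisons the edgeR p-values rest on a variance trend shared over genes, not on each gene's own spread between the sections. They do not extend beyond these sections. Border steps were counted from off-tissue areas of at least 5 positions. Spots are not replicates.

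Genes were named as the 9 markers, the 12 highest and 12 lowest log2 folds among calls whose sign was shared by the tumors and whose mean over the 4 sums reached 10 CPM (leaving out genes named by a clone), and the 2 largest changes of each of 29 lists; other list members are named beside their counts and were chosen after their values were seen. A gene of the macrophage list is not reported here. The spots, genes and lists were chosen with earlier results of these data known. Alternatives covered scaling, filters, depth, ties, the genes in M, and spots left out. Those with M without CD68, without CD68 and APOE, or of CD68 alone were chosen after seeing the data. Tested on simulated data, the first comparison recovered 62.2% of genes changed by 1 on the log2 scale and 22.4% of those changed by 0.5 (12705 genes), the paired one 56.8% and 12.9% (9056 genes), and the adjacent one 86.7% and 51.5% (12494 genes). False calls numbered 3, 1 and 11. The simulated counts used the fitted variance trend and the same change in both tumors. They therefore cannot show how the test behaves for genes on which the tumors disagree.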

Additional observations from a re-analysis of the deposited data

Results flagged for a closer look

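Spots under 5000 UMIs entered no comparison, and they held marker UMIs. In the 302 such spots of Tumor-897 (median 3281 UMIs) the 7 markers other than CD68 and APOE summed to 30 UMIs, or 29.8 CPM (UMIs per 1000000). In the 884 of Tumor-899 (median 1481 UMIs) they summed to 62 UMIs, or 39.2 CPM. CD68 was at 191 and 182 CPM in these spots and APOE at 40.8 and 93.5. Over all spots with at least 5000 UMIs CD68 was at 177 and 167 and APOE at 53.3 and 37.9. APOE was thus lower in the low-UMI spots of Tumor-897 and higher in those of Tumor-899.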

How the results depend on the processing

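In the comparison of marker-rich with marker-low spots, 621 genes were higher and 196 lower. Library size alone gave 465 lower, DESeq2 158 higher and 1 lower, and spots with at least 10000 UMIs 347 and 94. Choosing spots on one random part of the UMIs and summing the rest gave 313 and 67, thinning to 5000 UMIs 141 and 8, leaving out border spots 180 and 29, and leaving out collagen-rich spots 190 and 52. M without APOE gave 103 lower, without CD68 570 and without CD68 and APOE 458. The paired comparison (77 and 11) gave 4 and 0 with DESeq2, 7 and 0 with no filter on low counts, 118 and 119 with M without CD68, and 18 and 2 without border spots. The adjacent comparison (68 and 7) gave 11 lower with library size alone and 2 and 0 with DESeq2, and DESeq2 called 4 held-out markers. With no replicate block the counts were 124 and 0, 2 and 0, and 1 and 0; the block is the tumor that both sums of a pair come from, and replicate numbers, given in accession order, pair nothing else. The causes were not tested.

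With M of CD68 alone the log2 fold turned in PRG4 (-0.12), SIRPA (-0.47), HLA-DQA1 (-0.73), CCL5 (-0.053), HSPH1 (0.52), PCOLCE (-0.20), FBN1 (-0.066), ACTG2 (-0.58) and ACTA2 (-0.73). Without CD68 and APOE it turned in AGMAT (0.0060), ANGPTL4 (-0.090), CA9 (-0.31), BUB1B (0.027), RPS27 (-0.017) and HSPA6 (-2.04). Without CD68 it turned in CA9 (-0.21), RPS27 (-0.026), HSPA6 (-1.98) and KRT14 (1.78), and in the pairs in ACTA1 (-0.37), CA9 (-0.80) and HSPA6 (-1.47). Splitting the UMIs turned KLHL23 (0.19), thinning BUB1B (0.061) and HSPH1 (0.057), M without APOE HSPH1 (0.072), and leaving out collagen-rich spots HSPH1 (0.029) and AQP1 (-0.039). Leaving out border spots turned CFP (-0.027) and HBB (-0.096) in the pairs. Of the other alternative values of single genes, 1960 kept their direction and call or moved within the spread between tumors, 357 lost the call, 22 gained it and 77 moved further with 1 tumor left out. Leaving out 1 tumor leaves 1 sum a group and no test. Sparse UMIs limit what can be called, most in the paired comparison, where 9308 genes could be tested against 12967.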
